A study of Homo sapiens with 33 samples.

Results

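The antigen presentation genes described here are the 9 genes HLA-B, HLA-C, HLA-E, HLA-F, HLA-DRA, B2M, CD74, CIITA and TAP1, found by gene name among the 55325 rows on chromosomes 1 to 22 of a gene expression table with 58293 rows in all. Each name matched 1 row, and no row of the table lies on an alternate contig. The table came from 1 library, sequenced from RNA that served as the input of RIP-seq in unmodified (wild type) K562, with no antibody and no treatment named in the labels. K562 is a human erythroleukemia cell line. The submitters label the molecule as total RNA, and the RIP protocol worked on nuclear lysates of fixed cells; whether the input was drawn from such a lysate is not given in the sources used here. With 1 library there is no replicate error, so no test was run, and every level is given as FPKM (fragments counted per length of transcript and per mapped fragments of the library) with the confidence bounds that the authors deposited beside it. Values of 1 cell line also cannot tell fewer expressing cells from less RNA per cell.

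HLA molecules display peptides at the cell surface to T cells. Class I molecules pair a heavy chain (such as HLA-B, HLA-C or the less variable HLA-E and HLA-F) with the light chain beta-2-microglobulin, encoded by B2M, and are loaded in the endoplasmic reticulum with peptides that the TAP1 and TAP2 transporter carries in from the cytosol. Class II molecules pair an alpha chain such as HLA-DRA with a beta chain, are guided by the invariant chain CD74, and are normally made by B cells, dendritic cells and macrophages. CIITA is the transactivator that switches on class II genes, and NLRC5 is its counterpart for class I genes. Both act through RFX, NFY and CREB proteins that sit on a shared set of promoter boxes, of which the Y box holds the letters ATTGG. K562 cells are known for very little class I protein at their surface and are a standard target of natural killer cells.

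The promoters of these genes are shown to let the shared boxes be compared with the levels that follow. RefSeq windows on GRCh38.p14 (250 bases before to 50 after the gene start) were given for 6 of the 9 members, and not for HLA-E, HLA-DRA and CIITA. The 250 bases before the start are printed for the light chain, 3 heavy chains and the invariant chain, with matches to the Y box core (ATTGG, or CCAAT on the other strand) and to the kappaB consensus bound by NF-kB in capitals.

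B2M (chr15:44711267-44711516, plus strand): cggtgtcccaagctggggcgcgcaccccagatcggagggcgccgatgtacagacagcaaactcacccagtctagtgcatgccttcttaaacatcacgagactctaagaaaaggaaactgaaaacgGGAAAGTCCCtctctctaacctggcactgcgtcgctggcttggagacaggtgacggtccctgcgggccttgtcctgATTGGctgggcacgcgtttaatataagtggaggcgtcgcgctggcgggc

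HLA-B (chr6:31357180-31357429, minus strand): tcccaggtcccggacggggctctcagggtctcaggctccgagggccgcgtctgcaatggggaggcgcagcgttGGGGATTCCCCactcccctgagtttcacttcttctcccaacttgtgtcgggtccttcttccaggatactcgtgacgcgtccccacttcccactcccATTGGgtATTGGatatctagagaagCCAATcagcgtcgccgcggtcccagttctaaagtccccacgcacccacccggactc

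HLA-C (chr6:31272093-31272342, minus strand): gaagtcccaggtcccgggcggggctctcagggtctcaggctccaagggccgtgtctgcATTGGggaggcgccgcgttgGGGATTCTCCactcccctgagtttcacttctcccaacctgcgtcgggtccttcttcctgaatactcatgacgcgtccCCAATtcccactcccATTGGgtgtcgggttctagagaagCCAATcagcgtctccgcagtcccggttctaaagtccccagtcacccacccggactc

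HLA-F (chr6:29723184-29723433, plus strand): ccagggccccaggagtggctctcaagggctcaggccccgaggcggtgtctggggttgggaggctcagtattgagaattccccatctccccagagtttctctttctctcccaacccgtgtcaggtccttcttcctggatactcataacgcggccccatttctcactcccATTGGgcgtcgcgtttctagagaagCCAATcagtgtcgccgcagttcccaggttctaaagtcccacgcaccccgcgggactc

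CD74 (chr5:150412911-150413160, minus strand): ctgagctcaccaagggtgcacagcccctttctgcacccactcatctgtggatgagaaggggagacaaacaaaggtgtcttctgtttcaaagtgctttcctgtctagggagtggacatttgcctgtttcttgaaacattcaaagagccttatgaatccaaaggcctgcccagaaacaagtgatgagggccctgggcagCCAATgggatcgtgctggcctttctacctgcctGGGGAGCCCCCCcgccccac

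The Y box core occurred in each of these 5 windows. The match closest to the start began 49 bases before it in B2M, 53 in CD74, 56 in HLA-B, 56 in HLA-C and 57 in HLA-F. HLA-B held 3 matches, HLA-C held 4 and HLA-F held 2. Over all 35116 windows of the table, 34.6% held the Y box core, so its presence is common. The kappaB consensus, found in 11.3% of all windows, began 125 bases before the start in B2M, 172 in HLA-C and 177 in HLA-B, where a match in the other reading began at 176. HLA-F had no kappaB match. CD74 had 3 overlapping matches in a run of G and C, the first of them 20 bases before the start. An interferon response element (GAAA, any 2 bases and GAAA again, on either strand) was present in 3.57% of all windows, with 2 overlapping matches in B2M at 144 and 138 bases before the start and 1 in HLA-F at 156. The core of the CRE site bound by CREB proteins (TGACG, or CGTCA on the other strand), in 24.6% of all windows, was found in B2M, HLA-B and HLA-C at 75, 106 and 105 bases before the start. TAP1 has 2 windows in the table. The window at the upstream start held 1 Y box core at 249 bases before the start, 2 interferon response elements at 134 and 128, and kappaB matches 72 before and 22 after it, while the other window held none of the 4 motifs. Motifs were searched on both strands, and a match is a run of letters and no measured binding. Only exact matches were counted, so a site that departs from the pattern is missed, and no match does not mean no site.

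The light chain stood far above every other member. B2M had an FPKM of 98.2 (bounds 90.1 to 106), and 254 of the 55325 rows were higher. HLA-E, a heavy chain that presents leader peptides of other class I chains to natural killer cells, followed with 3.58 (2.87 to 4.29). TAP1 had 0.606 (0.292 to 0.920). These 3 class I pathway genes were the members whose lower bound was above 0, and their bounds did not overlap one another.

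The remaining 6 members lay between 0.0578 and 0.447, each with a lower bound of 0. CD74 had an FPKM of 0.447 (upper bound 1.16) and HLA-C had 0.371 (upper bound 0.878). CIITA and HLA-B were listed at 0.362 each, with upper bounds of 1.08 and 1.53. HLA-F, a heavy chain kept mostly inside cells, had 0.342 (upper bound 1.12). HLA-DRA, the alpha chain of HLA-DR, was lowest with 0.0578 (upper bound 0.242). From TAP1 down to HLA-DRA, the bounds of each gene overlapped those of the next, so the order of neighbours is not resolved. The lower bound of TAP1 (0.292) did lie above the upper bound of HLA-DRA (0.242).

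An FPKM of at least 1 was reached by 2 of the 9 members, B2M and HLA-E. Among all rows on chromosomes 1 to 22, 22.2% reached it, and among the 17478 rows of genes with a RefSeq protein, 50.9%. A lower bound above 0 was given for 3 of the 9 members, against 27% of all rows. That share includes rows without a protein and was not counted over protein genes alone. Counted over protein genes, B2M was above 99% of the rows, HLA-E above 62.7%, TAP1 above 45.4% and HLA-DRA above 19.9%. The other 5 members were above 40.2% to 42.7%, below the middle of the protein genes, whose median FPKM was 1.12.

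The width of the bounds shows how uncertain the low values are. The upper bound equals the FPKM plus 2 SD, by the convention of the software, so it can be turned into the number of fragments whose counting error alone would give it. That number was 590 for B2M, 102 for HLA-E and 14.9 for TAP1. It was 2.15 for HLA-C, 1.57 for CD74 and 1.01 for CIITA, and under 1 for HLA-F (0.764), HLA-DRA (0.395) and HLA-B (0.387). Reads shared between isoforms can also widen the bounds, so this number is not a count of reads. By this measure, 6 of the 9 members had bounds as wide as those of fewer than 3 fragments. At this depth, RNA of those 6 genes was not detected above the error of the estimate, which is not the same as its absence. The library total is not part of the table, so the depth itself is unknown.

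Between the 2 genes with firm values, B2M was 27.4 times as high as HLA-E, and 21.0 to 37.0 times when opposite bounds are divided. The lower bound of B2M was 103 times the upper bound of HLA-C, 80.2 times that of HLA-F and 59.0 times that of HLA-B. The FPKM of HLA-B, HLA-C, HLA-E and HLA-F summed to 4.66, of which HLA-E made up 76.9%. B2M was 21.1 times this sum, and 11.5 to 37.0 times with opposite bounds. Per length, the light chain was therefore listed at a higher level than these 4 heavy chains together.

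HLA-G, a heavy chain of the placenta, was listed at 0. Among HLA-B, HLA-C, HLA-E, HLA-F and HLA-G, only HLA-E reached 1 or had a lower bound above 0. The 12 class I pseudogenes found in the table had 0 of 12 at an FPKM of 1, with 7 listed at 0 and a highest value of 0.192 for HLA-T, whose bounds are those of 1 fragment. Among all rows on chromosomes 1 to 22, 22.2% reached 1.

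Class I-like genes, which share the fold of the heavy chains, had higher members. MICB and MICA, stress-induced ligands of the NKG2D receptor on natural killer cells, had an FPKM of 6.13 (4.85 to 7.4) and 5.28 (4.25 to 6.32). MR1, which presents vitamin B metabolites, had 1.75 (1.09 to 2.41). Of 18 class I-like genes, 5 reached an FPKM of 1 (50.9% of all protein genes did), the other 2 being HFE and ULBP1, and the median was 0.152. RAET1G was listed at 0, CD1A at 0.0609 (upper bound 0.147) and ULBP3 at 0.0702 (upper bound 0.329). MICA is the nearest protein gene after HLA-B, 42596 bp away, and its lower bound of 4.25 lay above the upper bound of HLA-B.

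The steps that load class I molecules were at unequal levels. The chaperones CANX (calnexin, 142, bounds 134 to 149), CALR (calreticulin, 91.6, 86.2 to 96.9) and PDIA3 (43.3, 40.1 to 46.5) serve all glycoproteins and were the highest of the 10 peptide loading genes by FPKM. TAP2, the partner of TAP1 in the transporter, had 9.81 (6.29 to 13.3). TAP2 was 16.2 times as high as TAP1, and 6.83 to 45.6 times with opposite bounds. Tapasin (TAPBP), which bridges the transporter and the heavy chain, had 8.05 (7.09 to 9.0). Of the 10 genes, 8 reached an FPKM of 1, against 50.9% of all protein genes. TAP1 and TAPBPL (0.562, upper bound 1.43) did not, and ERAP2, a peptidase that trims peptides, was the third lowest with 2.29 (0.947 to 3.63).

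The genes beside TAP1 in the class II stretch were at unequal levels. TAP2, which lies on the far side of PSMB8 from TAP1, had the FPKM of 9.81 given above. PSMB8 and PSMB9, the immunoproteasome subunits that interferon induces together with TAP1, had an FPKM of 0.384 (upper bound 0.811) and 0.187 (upper bound 0.620). PSMB9 overlaps TAP1 on the opposite strand, and PSMB8 ends 506 bp from it. The other immunoproteasome genes were higher, with 11.9 (8.68 to 15.2) for PSME2, 6.13 (4.51 to 7.74) for PSME1 and 2.84 (1.54 to 4.13) for PSMB10. Of the 5 genes, 3 reached an FPKM of 1, near the share of 50.9% among all protein genes.

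Class II chains were low throughout the list. An FPKM of 1 was reached by 0 of the 13 (22.2% of all rows and 50.9% of protein genes did), and their median was 0.126. The highest was HLA-DOB, a chain that modulates peptide loading in B cells, with 0.797 (0.275 to 1.32), the only class II chain with a lower bound above 0 and equal to 9.34 fragments by the width of its bounds. It was followed by HLA-DOA with 0.255 and HLA-DPA1 with 0.220. HLA-DMA had 0.189, HLA-DQA1 had 0.160, HLA-DQA2 had 0.129 and HLA-DPB1 had 0.126. HLA-DMB had 0.0807, HLA-DQB2 had 0.0648 and HLA-DRB1 had 0.0547, while HLA-DRB5 and HLA-DQB1 were listed at 0. The bounds of HLA-DRB1 are those of exactly 1 fragment. Summed over the 13 chains, the FPKM was 2.13.

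Among the class II processing genes, all but LGMN had a higher FPKM than CD74. IFI30, a thiol reductase of lysosomes, had an FPKM of 15.2 (13.2 to 17.3), the lysosomal protease CTSL had 12.7 (11.0 to 14.4) and the ubiquitin ligase MARCH8 had 8.34 (6.67 to 10.0). Of the 7 genes, 5 reached an FPKM of 1, against 50.9% of all protein genes. LGMN had 0.0990 (upper bound 1.07), CD74 had the next lowest value, and CTSS, the protease that trims the invariant chain, had 1.67 (0.875 to 2.46).

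Set against each other, the 6 class I members (HLA-B, HLA-C, HLA-E, HLA-F, B2M and TAP1) had a median log2(FPKM + 1) of 0.57 and the 2 class II members (HLA-DRA and CD74) one of 0.31. The difference of 0.26 was smaller than the error of the estimates, since it ran from -0.53 to 1.21 when the groups were set at opposite bounds. Without B2M and HLA-E it was 0.14. The size of the difference depended on the scale, at 0.97 with a pseudocount of 0.1, 1.46 with a pseudocount of 0.01, and 1.5 with means in place of medians. On the scale of log2(FPKM + 1), class I and class II were not distinguishable by their medians. B2M and HLA-E were the class I members whose lower bounds lay above the upper bounds of both HLA-DRA and CD74.

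The regulators also lay under an FPKM of 1. CIITA had an FPKM of 0.362, as given above, and NLRC5 had 0.455 (upper bound 1.5). The span of CIITA overlaps DEXI, a gene on the opposite strand with an FPKM of 4.32 (2.88 to 5.75), and the library was stranded, although the strand setting of the quantification is not given in the sources used here. The partners through which CIITA and NLRC5 act were higher. All 7 of 7 genes of the RFX, NFY and CREB group reached an FPKM of 1 (50.9% of protein genes did), with a median of 7.22. NFYC had 14.8 (11.7 to 18.0), NFYB had 12.45 (10.1 to 14.8) and CREB1 had 9.69 (7.26 to 12.1). The lowest were RFXAP with 2.74 (1.72 to 3.76), NFYA with 6.32 (5.59 to 7.04) and RFX5 with 6.38 (4.55 to 8.21).

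Interferon signalling, which induces both classes of HLA genes in many cells, was represented by 12 of 15 genes at an FPKM of 1 or more. Among all protein genes, 50.9% reached this level. JAK1 had 18.8 (13.75 to 23.9), TYK2 had 15.6 (12.2 to 19.05) and STAT2 had 9.31 (7.43 to 11.2). The ligand IFNG was listed at 0, and IRF8 (0.0949, upper bound 0.769) and SOCS1 (0.219, upper bound 0.439) were the other genes under 1. Of the 5 NF-kB subunits, 4 reached an FPKM of 1, led by NFKB1 with 8.08 (5.96 to 10.2), RELA with 7.97 (6.05 to 9.90) and REL with 3.67 (3.12 to 4.23), while NFKB2 had 3.18 (2.00 to 4.35) and RELB had 0.0286 (upper bound 0.370).

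Other genes of the same chromosomal stretches often had higher values than the HLA genes. On chromosome 6, the class I stretch was taken from the start of GABBR1 (29555629) to the end of MICB (31511124), the class III stretch from there to the end of NOTCH4 (32224067) and the class II stretch to the end of KIFC1 (33409924). Among genes with a RefSeq protein, 26 of 50 (52.0%) in the class I stretch, 33 of 55 (60.0%) in the class III stretch and 14 of 34 (41.2%) in the class II stretch reached an FPKM of 1. Over all such genes on chromosomes 1 to 22, 50.9% did. Without the HLA genes themselves, the shares were 25 of 44 (56.8%) in the class I stretch and 14 of 21 (66.7%) in the class II stretch. The class II stretch as taken here runs on past HLA-DPB1, the last of the class II chains, and most of these genes lie beyond it. Of those up to HLA-DPB1, TAP2 (9.81) and BRD2 (63.4) reached 1, while BTNL2, PSMB8, TAP1 and PSMB9 did not. The highest genes were TUBB with 131 in the class I stretch, CLIC1 with 135 in the class III stretch and RPS18 with 289 in the class II stretch. HLA-E lies 47172 bp from GNL1, which had an FPKM of 12.9 (10.45 to 15.3), and HLA-DRA lies 32714 bp from BTNL2, which had 0.310 (upper bound 1.22). Outside chromosome 6, CD74 lies 1329 bp from TCOF1 with 32.1 (28.9 to 35.2), and B2M lies 161 bp from PATL2 with 1.26 (0.390 to 2.12).

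HLA genes differ between people and resemble one another, and the authors kept only alignments with a mapping quality of at least 20. The exons of GENCODE 44 were therefore cut into all windows of 150 bases, and each was looked up in GRCh38 letter for letter. Elsewhere on the main chromosomes, 0 of 651 windows of HLA-C, 0 of 1883 of HLA-B, 0 of 1672 of HLA-E and 0 of 2939 of HLA-F occurred again. On alternate contigs, which carry other versions of the MHC, the shares were 69.7% for HLA-C, 42.8% for HLA-B, 85.3% for HLA-F and 100% for HLA-E, TAP1 and HLA-DRA. Whether the authors' genome index held alternate contigs is not given in the sources used here. HLA-E had a lower bound above 0 with all its windows shared, and so did B2M with 86.0% of its windows on an alternate contig. CD74, with 0 of 1107 windows shared, and CIITA, with 33 of 16923, were both under an FPKM of 1. Among MHC protein genes with at least 100 windows, 102 genes other than HLA genes had at least 90% of windows on alternate contigs. Of these 102, 62 (60.8%) reached an FPKM of 1. Of 9 HLA genes with such shares, 1 did, HLA-E. The others of the 9 were class II chains (HLA-DRA, HLA-DMB, HLA-DOA, HLA-DOB, HLA-DPA1, HLA-DPB1, HLA-DQA2 and HLA-DQB2). HLA-B, HLA-C and HLA-F had lower shares, so this count does not cover them. The part of mapping, and of K562 alleles that differ from the reference, in the low values was not tested.

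Several rows overlap a member. HLA-F shares its span with HLA-F-AS1 on the opposite strand, which had an FPKM of 0.374 (0.0279 to 0.720), about the level of HLA-F itself. HLA-B is listed from 31269491 to 31357188 on chromosome 6, a span that runs into HLA-C (31268749 to 31272130), both on the minus strand. The other members are listed on GRCh38 from 30489467 to 30494205 (HLA-E, plus strand), 29722775 to 29738528 (HLA-F, plus), 32439842 to 32445046 (HLA-DRA, plus) and 32845209 to 32853978 (TAP1, minus) on chromosome 6, from 44711477 to 44718877 on chromosome 15 (B2M, plus), from 150401637 to 150412929 on chromosome 5 (CD74, minus) and from 10866222 to 10932281 on chromosome 16 (CIITA, plus).

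The EZH2 RIP-seq fragments were a readout that the choice of members did not use. The tables used here list 900 fragments. The study describes a larger set, the rest of which was not analysed here, so a gene without a listed fragment may still have had one. Of the 900 listed fragments, 0 touched a member. Since 0.625% of all rows on chromosomes 1 to 22, and 1.29% of those with a RefSeq protein, were touched by a listed fragment, 0 of 9 is what that background gives and is no result about the members. Of the 100 pathway genes, 1 was touched, JAK2 on chromosome 9, by 2 fragments. The fragment from 5031812 to 5037313 had 1 cytoplasmic, 43 nuclear, 9 nuclear polyA+ and 54 nuclear polyA− reads, and the fragment from 5103872 to 5106509 had 1, 17, 64 and 18 reads in the same order. Within the MHC stretches, 2 of 325 rows (0.615%) were touched, HCG17 and HCG18, by 1 fragment on chromosome 6 from 30298111 to 30302246, with 19 cytoplasmic, 186 nuclear, 304 polyA+ and 230 polyA− reads. The counts are not scaled to the library totals and come from 1 library each.

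The cell type was checked against markers. All 13 erythroid markers had an FPKM of at least 1, among them HBG2 with 218 (206 to 230), TFRC with 171 (160 to 182) and GATA1 with 15.3 (13.5 to 17.0). Of the cells that normally carry class II molecules, 0 of 6 B cell markers reached 1, with CD79A and CD79B listed at 0, and 2 of 8 monocyte and dendritic cell markers did, LYZ with 5.76 (4.16 to 7.37) and CD80 with 1.44 (0.707 to 2.18), while CD14 and FLT3 were listed at 0. Of 5 T cell markers, CD3D had 6.29 (3.85 to 8.73) and the others were under 1. The share of all protein genes that reached 1 was 50.9%. The summed FPKM was 732 for the erythroid, 1.40 for the B cell, 7.70 for the monocyte and dendritic cell and 6.82 for the T cell markers.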

How the data were processed

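Gene levels came from 1 RNA-seq library of K562, the RIP input. The authors used TrimGalore for adapters, STAR for alignment (GRCh38, annotation GENCODE 26) and SAMtools for duplicates, dropped alignments under a mapping quality of 20, and deposited the FPKM that cuffdiff computed, each between 2 bounds. Versions are not given in the sources used here. The authors deposited raw read counts of the EZH2 RIP-seq fragments in 4 RNA fractions, made with featureCounts.

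Members were matched by gene name on chromosomes 1 to 22. Starts were read as 0-based and are given 1-based. No test was run, because 1 library has no replicate error. Levels were compared as log2(FPKM + 1), with a threshold of FPKM 1. Ratios with opposite bounds divide a lower by an upper bound and the reverse. The number of fragments was taken as (2 × FPKM / (upper bound − FPKM)) squared. Of 21059 values of at most about 10 fragments by this formula, 44.5% came out whole within 0.01. The others did not, so the number measures the width of the bounds and is not a count of reads. Windows used merged GENCODE 44 exons of at least 150 bases, without readthrough and retained-intron transcripts. The scripts were tested on simulated data.

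Every member and every heavy chain, class II chain and transactivator is named, and the 3 highest and up to 3 lowest genes of the other lists, except for 1 gene that is not reported here or plotted. Genes named for position, overlap or as markers were chosen after their values were seen. Members and lists were chosen with earlier results of these data known. Python 3.11.15, numpy 2.4.6, pandas 2.3.3 and matplotlib 3.10.9 were used. Apart from the fragment read counts of the RNA fractions, the other samples of the study were not analysed here.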

Additional observations from a re-analysis of the deposited data

How the results depend on the processing

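Of the 9 members, 2 had an FPKM of at least 1 and the same number had a lower bound of at least 1, while 3 had a lower bound above 0 and 8 had an FPKM of at least 0.1. Summing all rows of a gene name changed no FPKM, since each name has 1 row. The difference between the class I and class II medians stayed positive in the 6 alternatives tried, but was 0.97 with a pseudocount of 0.1, 1.46 with a pseudocount of 0.01 and 1.5 with means in place of medians (the cause was not tested). It was 0.04 with members of at least 0.1 only, which left CD74 as the only class II member. With a threshold of 0.1, 71 rows of the class I stretch and 43 of the class II stretch passed, in place of 33 and 16. The alternative without B2M and HLA-E was chosen after seeing the data. Wide bounds and 1 library limit every value under 1. No paired analysis was possible because the FPKM come from 1 library and no test was run.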
